A study of Rattus norvegicus with 22 samples.

Results

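Lungs embolized with the lower dose of microspheres (Mild PE) were compared at 18 h and at 2 h after injection. The members of this comparison were the 8 rats whose labels gave this dose, 4 at each time, out of 22 rats in all, with 1 array per rat. The question was how gene expression in the embolized lung moved between the early and the late time. Differences over all genes, and many of those named, were set beside the same difference in Vehicle rats (3 at 2 h, 3 at 18 h). Differences over all genes, and some of those named, were also set beside rats given the higher dose (Severe PE, 4 at each time). A gene given without its Vehicle value is reported as a time difference within Mild PE only. By the study's methods all were male Sprague–Dawley rats, and by the labels they weighed about 350 g, with no age given. Every rat had its lungs rinsed with 8 ml of saline through the airways before they were removed. The microspheres were polystyrene, 25 micron wide, and were injected into the right jugular vein. Mild PE rats received 1300000 per 100 g body weight in 0.10 ml of a 10% suspension per 100 g, and Severe PE rats 2000000. Vehicle rats received 0.15 ml per 100 g of 0.01% Tween 20, so the volume they received was larger than that of the Mild PE rats. Microspheres lodge in small pulmonary vessels without a clot, so the model leaves out fibrin and most platelet events. By the study's methods, right ventricular pressure was not measured in the rats killed at 18 h. At 2 h of Mild PE the methods report no significant difference of this pressure from controls. They cite later studies of the model in which Mild PE raised it at 18 h.

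Obstruction of pulmonary vessels is known to set off a first wave of cytokines and chemokines from macrophages and endothelium, many of them driven by the transcription factor NF-κB. Later phases of lung injury are known for acute phase proteins, adhesion molecules on the vessel wall, provisional matrix and its proteases. Secretory stress is handled in the endoplasmic reticulum by chaperones that help new proteins fold. The genes below are ordered by these roles: signals of the first wave, secreted and adhesive products, the machinery of protein synthesis and folding, structural genes, and clock genes.

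All signals are given as log2 of the array signal after quantile normalization, where 4 is the floor set at a signal of 16. Differences are log2 differences of group means, 18 h minus 2 h, with the standard error (SE). A gene was called changed where group means differed 1.5-fold or more and the adjusted p was below 0.05. Where several probesets measured a gene, the brightest on average stood for it. Arrays of the 2-h Mild PE rats correlated with each other at 0.9832 to 0.9852 over all probesets, those of the 18-h rats at 0.9693 to 0.9784, and arrays of different times at 0.9631 to 0.9758. The array of 18-h rat 4 was 1 of 4 arrays in the series with low 5′ signal (Gapdh 3′ minus 5′ of 0.491 against 0.196 to 0.208 in the other 18-h Mild PE rats). The others were Vehicle rat 3 of 2 h (0.346), Vehicle rat 1 of 18 h (0.638) and Severe PE rat 1 of 2 h (0.525), so both Vehicle groups held such an array. Alveolar type II markers, which mark a single cell type of the lung epithelium, were bright in every Mild PE lung (summed linear signal 148400 to 152500 at 2 h and 150400 to 154900 at 18 h).

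Of 14217 genes, 1010 (7.1%) were called between 18 h and 2 h of Mild PE. They split into 512 that rose (3.6%) and 498 that fell (3.5%), and in 1007 of them the 4 rats of one time all lay above the 4 of the other, as they did in 3517 of all 14217 genes (24.7%). In Vehicle rats 0 genes (0%) were called over the same interval in this limma fit on 3 against 3 rats, and 4815 of 31042 probesets had an unadjusted p under 0.05. In a fit of all 6 groups, which shares 1 estimate of the spread, 833 Vehicle probesets were called in place of 5, and 1446 in Mild PE in place of 1691. By probeset, 771 rose and 920 fell in Mild PE. With median centring in place of quantile normalization this split turned to 1029 higher and 796 lower, so the balance of rises and falls depended on the scaling. The total of 1691 probesets was 985, 1061 and 1097 without 2-h rat 3, 2 or 4, 1427 without 18-h rat 4 and 1830 without 18-h rat 3. Of the 1691, 1177 were also called in the same direction without 18-h rat 4, and the sign was kept in 1691. Because whole lung was measured, fewer cells of a type and less RNA per cell cannot be told apart in any fall reported here.

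**Figure D1:**
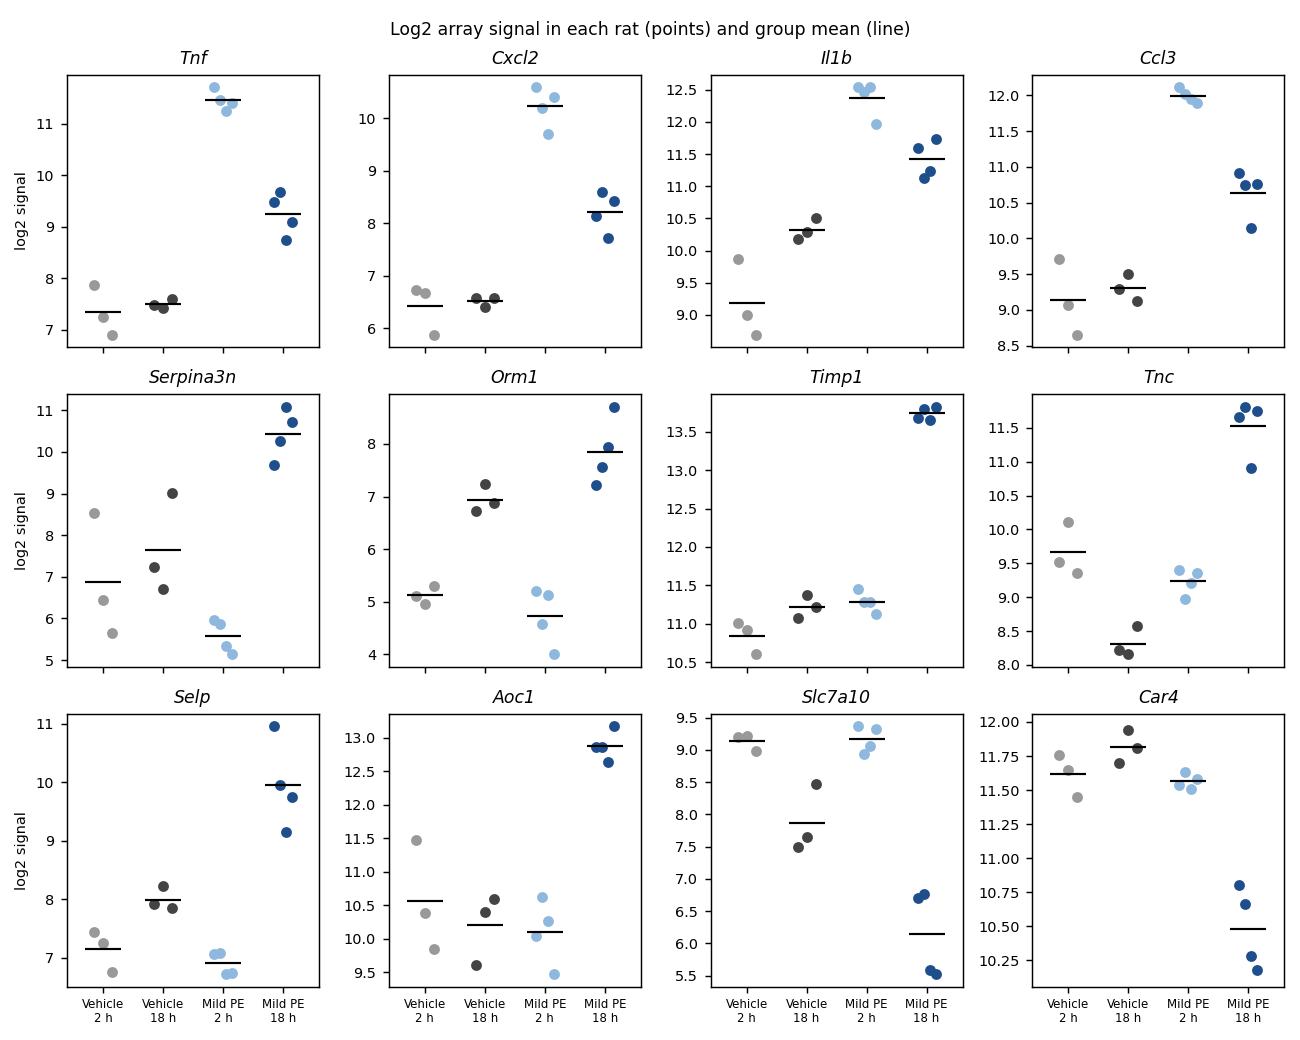
Log2 array signal (vertical axis, 4 is the floor, a separate scale per gene) of 12 genes in each rat of the Vehicle and Mild PE groups (points) with the group mean (line). Tnf and Cxcl2 fell between 2 h and 18 h of Mild PE and still stood above every Vehicle rat, while Timp1 rose from a mean of 11.29 to 13.74 with little spread among rats.

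Tnf, Cxcl2, Ccl3 and Il1b, all cytokines or chemokines of the first wave, were lower at 18 h than at 2 h. Tnf, the macrophage cytokine that activates endothelium, was at 11.71, 11.46, 11.24 and 11.40 in the 2-h rats and at 9.47, 9.67, 8.75 and 9.09 in the 18-h rats. The groups did not overlap, and all 18-h rats still lay above the 6 Vehicle rats (6.90 to 7.87). The fall was −2.21 (SE 0.21, 4.63-fold, adjusted p 0.00375), against 0.15 in Vehicle. Cxcl2, which draws neutrophils, went from 10.59, 10.20, 9.70 and 10.41 to 8.14, 8.59, 7.72 and 8.42, again with no overlap. Its fall was −2.01 (SE 0.26, adjusted p 0.00699), with 0.09 in Vehicle. Ccl3, a chemokine for monocytes and macrophages, fell by 1.35 (SE 0.17, adjusted p 0.00643) to 10.64 ± 0.34 (SD, n = 4), and Il1b, the other classic early cytokine, by 0.95 (SE 0.19, adjusted p 0.0255) to 11.43 ± 0.29. In Vehicle the Il1b difference had the opposite sign (1.14, not called). Ccrl2, a receptor that presents the chemoattractant chemerin on cell surfaces, fell by 1.72 (SE 0.16, adjusted p 0.00368) and Esm1, a proteoglycan of activated endothelium, by 1.98 (SE 0.43, adjusted p 0.0324). Among the feedback genes that NF-κB itself switches on, Nfkbia (IκBα, which holds NF-κB in the cytoplasm) fell by 0.69, Nfkbiz by 0.91 and Nfkbid by 1.12, at adjusted p 0.0285, 0.0195 and 0.023. Nfkbia lost its call in 10 of 17 alternatives, with −0.53 under median centring.

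The promoters of 3 of these falling genes are shown because they hold the letters of an NF-κB motif close to the start of the gene. They come from RefSeq (build GRCr8, 250 bases before to 50 after the start), matched by symbol. Capitals mark GGG followed after 2 bases by TTTCC, searched on both strands (a match on the other strand appears as its reverse complement). Among the genes of the cytokine, chemokine and NF-κB feedback lists that fell, 7 of 8 had a promoter in the table and 3 of the 7 held a match, against 446 of 27457 genes with a promoter (1.62%). The 8 genes were picked by their fall from lists that hold NF-κB feedback genes, and list members that did not fall were not counted. This share is therefore a description that is not tied to the fall, and a match of letters is not a binding site. The windows are chr14:17467206-17467505 (- strand) for Cxcl2, chr6:78597023-78597322 (- strand) for Nfkbia and chr11:58251471-58251770 (+ strand) for Nfkbiz.
Cxcl2: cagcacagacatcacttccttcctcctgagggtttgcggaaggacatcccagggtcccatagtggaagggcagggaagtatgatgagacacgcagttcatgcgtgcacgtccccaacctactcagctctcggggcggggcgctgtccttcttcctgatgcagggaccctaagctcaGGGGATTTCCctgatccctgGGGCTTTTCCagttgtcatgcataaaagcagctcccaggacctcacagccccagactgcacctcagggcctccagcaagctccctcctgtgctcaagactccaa
Nfkbia: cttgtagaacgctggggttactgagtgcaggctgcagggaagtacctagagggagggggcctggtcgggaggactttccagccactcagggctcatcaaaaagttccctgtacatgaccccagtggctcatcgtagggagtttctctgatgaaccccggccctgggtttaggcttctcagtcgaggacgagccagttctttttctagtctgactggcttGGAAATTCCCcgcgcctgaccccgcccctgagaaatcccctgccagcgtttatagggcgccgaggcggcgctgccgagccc
Nfkbiz: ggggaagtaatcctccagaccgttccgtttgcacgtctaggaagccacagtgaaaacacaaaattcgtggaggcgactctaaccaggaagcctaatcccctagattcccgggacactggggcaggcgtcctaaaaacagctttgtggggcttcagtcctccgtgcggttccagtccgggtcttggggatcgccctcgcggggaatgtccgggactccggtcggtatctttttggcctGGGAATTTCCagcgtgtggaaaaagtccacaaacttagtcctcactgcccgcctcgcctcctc
Cxcl2 held the motif at 2 places and the others at 1 each.

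Of 14 early cytokines measured, 3 fell (Tnf, Il1b and Il33, an epithelial and endothelial alarmin, at −0.82, adjusted p 0.0472) and 1 rose, with a list median of 0.217 beside 0.0143 for all genes. The riser was Il1rn, the natural antagonist of the interleukin 1 receptor. It was at 7.68, 7.95, 7.26 and 7.15 at 2 h and 9.80, 10.65, 9.03 and 9.09 at 18 h, a difference of 2.13 (SE 0.40, adjusted p 0.0207) with 1.30 in Vehicle. Il6 had 1.25 (SE 0.51, adjusted p 0.18, not called), and its 18-h rats ranged from 6.73 to 8.66. The CC chemokines split, with 2 of 14 up and 2 down and a list median of 0.388. Ccl7, a monocyte chemokine, rose from 7.10, 7.33, 6.97 and 6.75 to 10.70, 10.44, 8.72 and 10.0, a difference of 2.93 (SE 0.43, adjusted p 0.00982). Ccl24, an eosinophil chemokine of macrophages, rose by 2.05 (SE 0.28), whereas Ccl21, which guides lymphocytes and dendritic cells, fell by 0.61 (adjusted p 0.0495). Ccl2, next to Ccl7 in function, had 1.25 (adjusted p 0.0682, not called). In the CXC list 1 of 8 fell (Cxcl2) and 1 rose, the neutrophil chemokine receptor Cxcr2 (1.38, adjusted p 0.0196, Vehicle 1.12), with a median of −0.0411. Of 13 NF-κB feedback genes 2 fell and 1 rose, Tnip2 (0.65, adjusted p 0.00376), with a median of 0.368. With median centring this balance turned to 1 lower and 2 higher, and that of the CC chemokines to 3 higher and 1 lower. Nfkbid, Ccrl2 and Esm1 were not in these lists of cytokines and feedback genes.

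Immediate early transcription factors are induced by cells within minutes of a stimulus. Of 19 measured, 0 fell by the test and 2 rose, Maff (1.09, adjusted p 0.0232, Vehicle 1.10) and Myc (0.93, adjusted p 0.0372, Vehicle 0.38), with a median of 0.017. Egr1 stood at 12.55, 12.65, 12.63 and 12.61 at 2 h and at 13.16, 12.48, 12.17 and 12.59 at 18 h. The ranges overlapped and the difference was −0.01 (SE 0.20; 0.14 with median centring), while in Vehicle Egr1 went from a mean of 10.21 to 11.67. Fos had 0.52 (SE 0.26), Nr4a1 −0.59 (SE 0.15, adjusted p 0.0566) and Atf3 −0.69 (SE 0.19, adjusted p 0.0687), none of them called. The list's median in Vehicle was 0.579, with 0 of 19 called. Socs3, the inhibitor of STAT3 signaling, rose by 1.62 (SE 0.35, adjusted p 0.0319, Vehicle 1.0) as the only one of 11 STAT3 feedback genes called. Spry4, an inhibitor of growth factor signaling, rose by 0.73 (adjusted p 0.0203), the single call of 10 MAP kinase phosphatases and Sprouty inhibitors.

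Of 15 acute phase and scavenging genes, whose products neutralise proteases, bind iron or scavenge hemoglobin, 7 rose and 0 fell. Serpina3n, a serine protease inhibitor with the largest rise among the genes called, was at 5.96, 5.86, 5.35 and 5.14 at 2 h and at 9.68, 10.26, 11.09 and 10.72 at 18 h. The groups did not overlap, and the rise was 4.86 (SE 0.34, 29-fold, adjusted p 0.00211), against 0.77 in Vehicle. Vehicle rats were spread widely, from 5.66 to 8.54 at 2 h and from 6.70 to 9.02 at 18 h, all below the 18-h Mild PE rats. Orm1, a plasma glycoprotein, went from 5.21, 4.59, 5.14 and 4.0 (1 rat at the floor) to 7.21, 7.55, 7.94 and 8.71. Its difference was 3.12 (SE 0.40, adjusted p 0.00717) and was 1.85 with a floor of 64. In Vehicle it was 1.82, and the 18-h Vehicle rats at 6.72 to 7.23 reached into the range of the 18-h Mild PE rats. Saa3 rose by 1.98, A2m (α2-macroglobulin) by 1.65, Lcn2 (which binds bacterial iron carriers) by 1.64, Hp (haptoglobin) by 1.22 and Cd14, the lipopolysaccharide co-receptor, by 0.77, at adjusted p 0.00541, 0.0112, 0.0129, 0.0461 and 0.0457. With a floor of 64 A2m had 0.70 and was not called (adjusted p 0.0568). The list had a median of 1.14 beside 0.32 in Vehicle and 0.0143 for all genes in Mild PE. Of 7 liver markers 0 were called, and Alb and Serpina1 had 0.27 and −0.54 (adjusted p 0.443 and 0.137). Mt2A, a metallothionein that binds zinc, rose from 9.95, 9.98, 9.80 and 9.05 to 11.41, 11.23, 12.61 and 13.18, a difference of 2.41 (SE 0.48, adjusted p 0.026). Slc39a14, a zinc and iron importer, rose by 0.92 (adjusted p 0.0258), so that 2 of 10 genes of metal and heme handling rose, while Hmox1, which degrades heme, had 1.03 (adjusted p 0.0586, not called).

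Of 19 metalloproteinases and inhibitors 5 rose and 0 fell, and of 18 matricellular genes 4 rose and 2 fell. Timp1, the inhibitor of matrix metalloproteinases, was at 11.46, 11.29, 11.28 and 11.12 at 2 h and 13.68, 13.80, 13.65 and 13.83 at 18 h. The groups did not overlap, with a rise of 2.45 (SE 0.08, 5.48-fold, adjusted p 0.000212) and 0.38 in Vehicle. Tnc (tenascin C), a matrix glycoprotein of injured tissue, went from 9.41, 8.98, 9.21 and 9.36 to 11.66, 11.81, 10.90 and 11.74. The rise was 2.29 (SE 0.22, adjusted p 0.00373), and in Vehicle the value had the opposite sign (−1.35). Spp1 (osteopontin) rose by 2.28 and the proteoglycan Vcan by 1.42, at adjusted p 0.015 and 0.0186. Adamts4, which cleaves proteoglycans of this type, rose from 8.26, 8.31, 7.60 and 7.26 to 9.96, 9.92, 10.18 and 10.31, a difference of 2.24 (SE 0.26, adjusted p 0.0054). Its relative Adamts1 rose by 0.78 (adjusted p 0.0117, Vehicle −0.82), Mmp12, the macrophage elastase, by 2.15 (adjusted p 0.032) and Mmp19 by 0.88 (adjusted p 0.0118). The list medians were 0.521 for metalloproteinases and inhibitors and 0.335 for matricellular genes, Timp1 counting in both. The 2 fallers were Spon2 (−1.59, adjusted p 0.0312) and periostin, Postn (−1.02, adjusted p 0.0234), both secreted matrix proteins.

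Among 13 genes of endothelial activation 3 rose and 1 fell. Selp (P-selectin), on which leukocytes begin to roll, went from 7.07, 7.08, 6.72 and 6.74 to 10.96, 9.95, 9.15 and 9.74. The groups did not overlap, and the rise was 3.05 (SE 0.37, adjusted p 0.00611) with 0.85 in Vehicle. Sele (E-selectin) was at 6.94, 6.37, 6.97 and 5.31 and then at 10.34, 9.22, 7.67 and 8.59. The 18-h rats were widely spread but all above the 2-h rats. The rise of 2.56 (SE 0.64) passed the threshold (adjusted p 0.0498), but the call was lost in 13 of 17 alternatives. Nos3, the endothelial nitric oxide synthase, rose by 1.04 (adjusted p 0.015, Vehicle 0.81). Esm1 was the faller, and the list median was −0.0217. Tfpi2, an inhibitor of coagulation and matrix proteases, rose by 2.07 (SE 0.41, adjusted p 0.0241) as the single gene called of 18 in coagulation and fibrinolysis (median −0.00934, above 0 with median centring or no normalization). Prostacyclin synthase Ptgis rose by 0.87 and prostaglandin E synthase Ptges by 0.80, while Hpgd, which inactivates prostaglandins, fell by 1.17, at adjusted p 0.00342, 0.0194 and 0.0132 (17 genes in the list, median 0.0269). Vegfd, a growth factor of lymphatic vessels, rose by 1.38 and Tek, the angiopoietin receptor, fell by 0.75 (adjusted p 0.0443 and 0.0211, 28 genes in the list).

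Other genes with large rises belonged to none of the lists above. C2cd4b, a nuclear protein induced by cytokines in endothelium, did not leave the floor of 4 in the 4 rats of 2 h and stood at 7.95, 8.59, 6.74 and 7.92 at 18 h, a rise of at least 13.9-fold (adjusted p 0.00368). Because the 2-h values were all set to the floor, they carry no spread of their own (SD of 0), so the p-value understates the error. With a floor of 64 the log2 difference was 1.80. Both Vehicle groups held rats above the 2-h Mild PE rats (means 6.62 and 6.32), and the 2-h Severe PE rats stood at 8.32, 8.52, 8.33 and 8.19. Aoc1, the diamine oxidase that degrades histamine, rose from 10.05, 10.62, 10.27 and 9.47 to 12.86, 12.86, 12.64 and 13.17, a difference of 2.78 (SE 0.25, adjusted p 0.00333, Vehicle −0.36). Steap1, a membrane protein of the metalloreductase family, rose by 2.55 (SE 0.30, adjusted p 0.00567) and Chrdl2, an antagonist of bone morphogenetic proteins, by 2.04 (SE 0.22, adjusted p 0.00493). Sectm1b, at the floor in 3 of 4 2-h rats and at 4.06 in the other, rose by 2.67 (adjusted p 0.0214). With a floor of 64 its difference was 0.81 and not called (adjusted p 0.394), and the call was lost in 6 of 17 alternatives. Chrdl2 had 1.06 with that floor and was still called.

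Of 20 genes of protein folding in the endoplasmic reticulum (a list of chaperones that also holds stress response genes such as Xbp1) 9 rose and 0 fell. Calr (calreticulin), a chaperone for glycoproteins, was at 12.58, 12.56, 12.50 and 12.44 at 2 h and at 13.10, 13.23, 13.02 and 13.29 at 18 h. The groups did not overlap, and the rise was 0.64 (SE 0.07, adjusted p 0.00489) with 0.11 in Vehicle. Hsp90b1 (GRP94) went from 11.20, 11.26, 11.15 and 10.94 to 11.83, 11.77, 11.78 and 12.05, a difference of 0.72 (SE 0.09, adjusted p 0.00721, Vehicle −0.27). Sdf2l1, which works with the chaperone BiP, had the largest rise of the list (1.19, SE 0.12, adjusted p 0.00456, Vehicle 0.50). The disulfide isomerases Pdia4 and Pdia6 rose by 0.91 and 0.64, the cochaperones Dnajb11 and Dnajc3 by 0.76 and 0.71, the large chaperone Hyou1 by 0.78 and the secreted stress factor Manf by 0.70. Their adjusted p lay between 0.00593 (Pdia6) and 0.049 (Manf). Hyou1 lost its call in 13 of 17 alternatives and Manf in 12. Hspa5, BiP itself, was at 12.57, 12.72, 12.39 and 12.06 and 13.17, 13.08, 12.80 and 13.61 and missed the threshold (0.73, SE 0.21, adjusted p 0.0729). The list had a median of 0.654 beside 0.00177 in Vehicle. The count of 9 became 4 when 2-h rat 1, 2, 3 or 4 was left out, and 5 without 18-h rat 2. Of 17 heat shock chaperones 1 rose, the mitochondrial chaperonin Hspd1 (0.71, adjusted p 0.0295, list median 0.282), and 3 did with median centring or no normalization.

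Promoters of 4 of these risers are shown because they hold the stress response element of the endoplasmic reticulum (ERSE), the element through which unfolded proteins are known to switch on chaperone genes. They are RefSeq sequences of build GRCr8, 250 bases before to 50 after each start, at chr19:40213117-40213416 (+ strand) for Calr, chr7:23012244-23012543 (- strand) for Hsp90b1, chr15:102432417-102432716 (+ strand) for Dnajc3 and chr8:53602632-53602931 (+ strand) for Hyou1. Capitals mark CCAAT followed after 9 bases by CCACG (ERSE) in the first 3 and ATTGG followed after 1 base by CCACG (ERSE-II) in Hyou1, each searched on both strands.
Calr: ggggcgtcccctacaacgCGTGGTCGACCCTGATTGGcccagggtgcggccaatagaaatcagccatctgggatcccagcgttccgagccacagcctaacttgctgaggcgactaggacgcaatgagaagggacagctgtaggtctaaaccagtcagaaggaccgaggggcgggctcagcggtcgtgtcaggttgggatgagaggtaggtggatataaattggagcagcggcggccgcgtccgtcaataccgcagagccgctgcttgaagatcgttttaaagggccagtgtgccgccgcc
Hsp90b1: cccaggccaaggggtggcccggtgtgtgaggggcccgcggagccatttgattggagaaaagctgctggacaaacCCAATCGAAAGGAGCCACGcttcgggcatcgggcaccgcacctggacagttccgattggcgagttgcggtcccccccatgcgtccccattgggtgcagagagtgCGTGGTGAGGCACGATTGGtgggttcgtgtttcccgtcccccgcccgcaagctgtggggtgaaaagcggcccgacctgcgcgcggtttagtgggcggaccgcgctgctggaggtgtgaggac
Dnajc3: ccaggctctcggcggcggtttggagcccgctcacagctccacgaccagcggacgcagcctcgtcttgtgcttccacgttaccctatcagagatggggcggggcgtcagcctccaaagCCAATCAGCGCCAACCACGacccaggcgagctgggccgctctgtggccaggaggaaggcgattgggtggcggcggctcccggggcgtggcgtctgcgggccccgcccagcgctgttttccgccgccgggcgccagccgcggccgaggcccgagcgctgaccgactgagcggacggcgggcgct
Hyou1: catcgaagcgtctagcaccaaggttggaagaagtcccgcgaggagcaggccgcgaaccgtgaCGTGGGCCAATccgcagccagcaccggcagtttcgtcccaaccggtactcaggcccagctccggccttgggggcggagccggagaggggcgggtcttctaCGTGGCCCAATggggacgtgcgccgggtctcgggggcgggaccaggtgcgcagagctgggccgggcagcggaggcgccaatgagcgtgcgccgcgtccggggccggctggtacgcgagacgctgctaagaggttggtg
Hsp90b1 and Hyou1 each held their element at 2 places. ERSE occurred in 21 of 27457 genes with a promoter (0.0765%) and in 7 of the 17 genes of the endoplasmic reticulum list with one (Calr, Canx, Creld2, Dnajc3, Hsp90b1, Hspa5 and Xbp1). ERSE-II occurred in 17 genes (0.0619%), among them the list's Dnajb11, Herpud1 and Hyou1, and no gene held both elements although they share the letters CCACG. Of the 10 list genes with either element 5 rose, and of the 7 with neither 2 rose. The list holds genes of the kind this element is known to switch on. Its share is therefore a description that is not tied to the rise, and a match of letters is not a binding site. Manf, Pdia3 and Pdia6 had no promoter in the table.

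Ribosome biogenesis, the nucleolar assembly of ribosomes, gave the list with the most genes called. Mybbp1a, a nucleolar regulator of ribosomal RNA synthesis, was at 10.95, 10.83, 10.83 and 10.81 at 2 h and 11.64, 11.91, 11.51 and 11.66 at 18 h. Nop2, a ribosomal RNA methyltransferase, went from 9.57, 9.62, 9.52 and 9.51 to 10.42, 10.53, 10.09 and 10.59. Neither gene overlapped between the times, and the rises were 0.83 (SE 0.09, adjusted p 0.00482) and 0.86 (SE 0.11, adjusted p 0.00699), with 0.45 and 0.38 in Vehicle. Gar1, of the particles that modify ribosomal RNA, rose by 1.09 (SE 0.15, Vehicle −0.03) and Wdr12, an assembly factor of the large subunit, by 0.70 (SE 0.09, Vehicle −0.24). Of 25 genes 12 rose and 0 fell, with a median of 0.664 beside 0.0482 in Vehicle, and 8 to 16 rose when 1 rat was left out. Of 17 cytosolic ribosomal proteins 0 were called (median 0.0594). Rps3 had 0.14 and Rps23 −0.14 (0.20 with median centring). Genes that ATF4 is known to induce for amino acid supply rose in 5 of 20 cases and fell in 1. Aldh1l2, a mitochondrial folate enzyme at the floor in 2 of 4 2-h rats, rose by 3.40 (SE 0.43, adjusted p 0.00686) to 8.24, 8.28, 7.37 and 8.36, and its difference was 2.06 with a floor of 64. Shmt2, which supplies glycine and folate units in mitochondria, rose by 0.98 (SE 0.09, adjusted p 0.00333), the amino acid transporters Slc7a5 and Slc1a5 by 1.03 and 1.06 and Mthfd2 by 0.69, while the lipoprotein receptor Vldlr fell by 0.71 (adjusted p 0.00368). The list's median was 0.337 beside 0.115 in Vehicle. Its count of risers was 3 when any of 2-h rats 1 to 4 or 18-h rats 2 or 4 was left out, and 8 without 18-h rat 3.

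The promoters of Mybbp1a at chr10:57555208-57555507 (+ strand) and Nop2 at chr4:159618716-159619015 (+ strand) are shown for their E-box, CACGTG in capitals, a palindrome that Myc and other factors of its class are known to bind. Sources and windows are those given above.
Mybbp1a: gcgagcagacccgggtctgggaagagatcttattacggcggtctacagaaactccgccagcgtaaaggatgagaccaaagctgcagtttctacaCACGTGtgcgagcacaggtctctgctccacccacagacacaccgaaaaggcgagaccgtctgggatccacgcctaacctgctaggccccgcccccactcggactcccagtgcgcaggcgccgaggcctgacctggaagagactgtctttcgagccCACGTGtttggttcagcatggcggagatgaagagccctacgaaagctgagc
Nop2: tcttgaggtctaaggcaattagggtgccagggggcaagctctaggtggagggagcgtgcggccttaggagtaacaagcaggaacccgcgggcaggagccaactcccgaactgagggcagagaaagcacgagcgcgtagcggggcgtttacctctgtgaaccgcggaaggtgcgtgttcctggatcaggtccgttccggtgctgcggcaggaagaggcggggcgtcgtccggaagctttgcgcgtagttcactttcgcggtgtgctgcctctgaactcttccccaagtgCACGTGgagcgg
The E-box lay in the promoters of 10 of 22 ribosome biogenesis genes with one (45.5%) and of 1943 of all 27457 genes (7.08%). Of the 10 that held it 5 rose, and of the 12 that did not 5 rose. The share describes the list and is not tied to the rise, and a match of letters is not a binding site. Bop1, Rrs1 and Wdr43 had no promoter in the table.

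**Figure D2:**
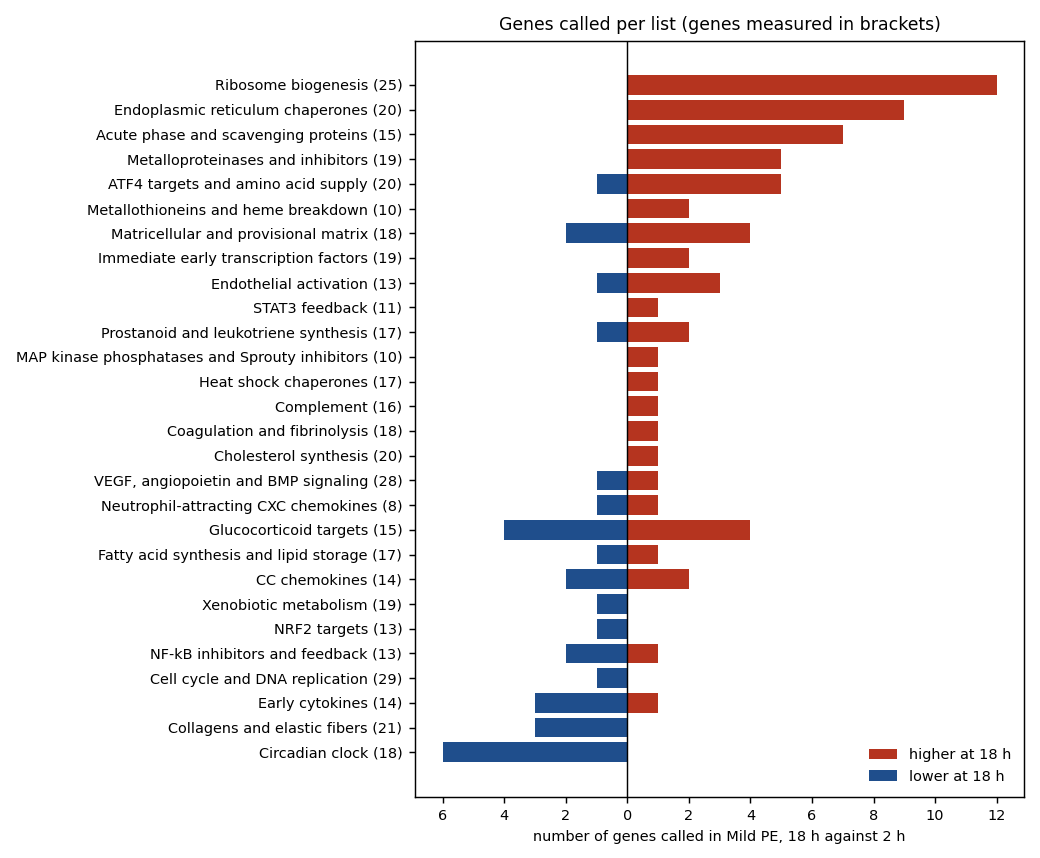
Number of genes called in Mild PE between 18 h and 2 h in each pathway list with at least 1 call (bars to the right, higher at 18 h; bars to the left, lower), with the number of genes measured in brackets. Ribosome biogenesis has 12 risers of 25 genes and no faller, and the circadian clock list 6 fallers of 18 and no riser.

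Slc7a10, a transporter of small neutral amino acids, fell between the times, from 9.36, 8.93, 9.06 and 9.33 at 2 h to 6.71, 6.77, 5.59 and 5.52 at 18 h. The fall of 3.02 (SE 0.34, adjusted p 0.00506) compares with −1.26 in Vehicle. Nell1, a secreted differentiation factor, fell by 2.40 (SE 0.42, Vehicle −1.67), Them5, a mitochondrial thioesterase, by 2.21 (SE 0.39, Vehicle −0.36) and Tent5b by 2.13 (SE 0.35, Vehicle −0.26). Srpx2, an extracellular matrix protein, went from 10.0, 10.13, 10.03 and 10.04 to 8.39, 7.57, 8.52 and 7.66, a difference of −2.01 (SE 0.23, adjusted p 0.00566), with 0.10 in Vehicle. Cldn11, a tight junction protein, fell by 1.95 (SE 0.37, adjusted p 0.0217). Its 18-h rats formed a higher pair (8.72 and 9.06) and a lower pair (7.54 and 7.68). Olfml3, a secreted matrix protein, fell by 1.91 (SE 0.20) and Nrep by 1.87 (SE 0.20, Vehicle −1.10). The water channel Aqp4 went from 9.76, 9.69, 10.06 and 9.88 to 7.89, 7.77, 7.90 and 8.34, a difference of −1.87 (SE 0.14, adjusted p 0.00246), with −1.32 in Vehicle. Slc38a5, a glutamine transporter, went from 10.56, 10.48, 10.57 and 10.58 to 8.64, 8.95, 8.86 and 8.34, a difference of −1.85 (SE 0.13, adjusted p 0.00213), with −0.17 in Vehicle. Kcnip1, a potassium channel subunit at the floor in 2 of 4 18-h rats, fell by 1.85 (adjusted p 0.0483). With a floor of 64 its difference was −0.56, and the call was lost in 11 of 17 alternatives. Collagens and elastic fibers had 3 of 21 lower and 0 higher (median −0.351, Vehicle −0.146). These were Fbln5, which assembles elastic fibers (−1.46, adjusted p 0.00535), the laminin chain Lama2 (−1.15, adjusted p 0.00667) and Col14a1 (−0.92, adjusted p 0.0307).

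Of 18 clock genes 6 fell and 0 rose. The molecular clock runs in the lung as elsewhere, and Nr1d1, Nr1d2, Per, Dbp, Tef and Hlf are clock genes or outputs that peak at particular times of day. The labels give no time of day, so clock time and time since injection cannot be told apart within Mild PE. Nr1d2, a repressor of the clock, was at 9.26, 8.26, 8.89 and 9.82 at 2 h and 7.46, 7.44, 6.35 and 6.95 at 18 h, a fall of 2.01 (SE 0.39, adjusted p 0.0242), and Vehicle gave −1.92 and Severe PE −2.23. Nr1d1 was at 9.81, 8.02, 8.83 and 12.03 and then at 7.45, 7.48, 6.83 and 6.51. Its difference of −2.60 (SE 0.84) was not called (adjusted p 0.104), with 2-h rat 4 above the other 2-h rats, and Vehicle gave −2.07. The same rat was the highest of the 2-h Mild PE rats for Dbp (7.48, 7.14, 7.63 and 9.83) and Per3 (7.26, 6.59, 7.52 and 8.75). Per3 fell by 1.75 (adjusted p 0.0479), Per1 by 1.49 (adjusted p 0.0348), Tef by 1.43 (SE 0.26, adjusted p 0.0189), Hlf by 1.17 (SE 0.21, adjusted p 0.018) and Cry2 by 0.72 (SE 0.14, adjusted p 0.0223). For these 5 the Vehicle differences were −0.11, −0.25, −0.08, −0.07 and 0.39, and none of the 5 passed the test of Mild PE against Vehicle (adjusted p 0.0528 for Cry2 to 0.385 for Per3). The list median was −0.704 beside −0.0735 in Vehicle. The count of 6 was 0 without 2-h rat 3, 2 without 2-h rat 1, and 3 without 2-h rat 2, 2-h rat 4 or 18-h rat 4.

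Genes that glucocorticoids are known to induce moved both ways, 4 of 15 up and 4 down (median −0.413, Vehicle −0.245). Klf9 fell from 11.50, 11.38, 11.34 and 11.83 to 9.83, 10.07, 9.73 and 9.78, a difference of −1.66 (SE 0.13, adjusted p 0.00267), with −0.68 in Vehicle. Tsc22d3 (GILZ) fell by 1.54 (Vehicle −0.52) and the hormone receptor cochaperone Fkbp5 by 1.28 (adjusted p 0.00968, Vehicle −1.15), as did Per1. The risers were Mt2A, Lcn2, Cebpd (0.62, adjusted p 0.048), and Angptl4, an inhibitor of lipoprotein lipase (1.46, adjusted p 0.0143, Vehicle 0.38). Mt2A and Lcn2 are also counted with the acute phase and metal-binding genes.

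The remaining lists held few calls. In cholesterol synthesis 1 of 20 rose and 17 of 20 were positive, with a median of 0.354 beside −0.0778 in Vehicle. The riser was Hsd17b7 (1.0, adjusted p 0.042), which lost its call in 11 of 17 alternatives. In Severe PE 10 of 20 rose (median 0.767), but 0 of 20 passed the test of the time difference in Mild PE against that in Severe PE. Fdps, which makes a precursor of sterols, had 0.51 in Mild PE and 0.97 in Severe PE. The desaturase Fads1 fell by 0.62 (adjusted p 0.0242) beside the rise of Angptl4 in the lipid storage list (17 genes). Of 19 genes of xenobiotic metabolism only Fmo1 was called (−0.86, adjusted p 0.0364), and 16 of the 19 were negative, 13 with median centring (median −0.366, Vehicle 0.122). The NRF2 list had 1 of 13 called (Osgin1, −0.74), the cell cycle list 1 of 29 (Cdk1, −0.79) and complement 1 of 16 (properdin, Cfp, 0.95). In Vehicle Cfp was at 7.71, 8.12 and 4.0 at 2 h, 1 rat at the floor, and at 8.98, 9.04 and 9.13 at 18 h. With median centring 3 genes rose in each of cholesterol synthesis, complement, and hypoxia and glycolysis. Lists with 0 called were the interferon-stimulated genes (23 genes, Bst2 at −0.36 and Cxcl9 at 0.67), hypoxia and glycolysis (22, Eno1 at 0.49 and Ldha at 0.48), p53 targets (12, Sesn1 at −0.56 and Gadd45a at −0.53), proteasome subunits (26, Psmb5 at 0.35 and Psmc4 at 0.44), the respiratory chain (28, Cyc1 at 0.34 and Sdha at −0.21) and class II antigen presentation (11, RT1-DMa at 0.46 and Cd80 at 0.70). Several of these, such as Eno1 (adjusted p 0.00367) and Psmb5 (adjusted p 0.00376), passed in p but lay under 1.5-fold.

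Set beside Vehicle, most genes called in Mild PE had a difference of the same sign in rats without microspheres. Of the 1010 genes called, 780 (77.2%) had the same sign in Vehicle and 399 (39.5%) the same sign with at least 0.5 times the size. Over all 14217 genes these shares were 60.7% and 48.5%. The Mild PE and Vehicle differences share no rats, and across the 1010 genes they correlated at r = 0.571, a description over genes of the same arrays. Over all 14217 genes r was 0.302. The test of the time difference in Mild PE against that in Vehicle called 160 genes (1.13%), 68 above and 92 below, of which 83 had been called in Mild PE itself and 77 had not. By probeset the count was 231, and leaving out 1 rat moved it between 61 (2-h Mild PE rat 4) and 461 (18-h Mild PE rat 3).

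The genes whose time difference exceeded that of Vehicle most included Tnc (3.64, SE 0.43, adjusted p 0.00147), Aoc1 (3.15, SE 0.59), Steap1 (2.61, SE 0.36, adjusted p 0.00474), Adamts4 (2.39), Timp1 (2.07, SE 0.15, adjusted p 2.04e-06), Flrt2 (1.92), Ntrk2 (1.75) and Chrdl2 (1.71). C2cd4b and Itgb1bp2 (melusin, a muscle protein) passed as well, but rest on values at the floor. For C2cd4b, at the floor in all 2-h Mild PE rats and 1 18-h Vehicle rat, the fitted 4.10 is no exact difference. It was 1.43 with a floor of 64 and not called, and the call was lost in 14 of 22 alternatives. Itgb1bp2 had 0.21 in Mild PE and −2.19 in Vehicle, where 2 of 3 18-h rats were at the floor. The difference of 2.40 was 0.92 with a floor of 64, and the call was lost in 15 of 22 alternatives. The adhesion protein Flrt2 and the neurotrophin receptor Ntrk2 likewise had −0.85 and −1.15 in Vehicle beside 1.07 and 0.60 in Mild PE, neither called there. In the other direction stood Tnf (−2.37, SE 0.42), Ccrl2 (−2.34, SE 0.29, adjusted p 0.00183), Nfkbid (−2.14), Srpx2 (−2.11), Cxcl2 (−2.10), Il1b (−2.09), Tekt5 (−1.90), the serine protease Htra3 (−1.90, adjusted p 0.0123), the kinase Pim1 (−1.71) and Slc38a5 (−1.69). For Tekt5 and Pim1 the Vehicle rats had 1.35 and 1.55 and the Mild PE rats −0.55 and −0.16, not called. Htra3 fell by 0.74 (adjusted p 0.0367) and had 1.16 in Vehicle. By list, 3 of 19 metalloproteinases and inhibitors passed this test upward (Timp1, Adamts4 and Adamts1), 2 of 20 endoplasmic reticulum chaperones (Pdia6, 0.85, and Pdia3) and 2 of 25 ribosome biogenesis genes (Gar1, 1.11, and Wdr12, 0.93). The large rises of Serpina3n and Selp did not (adjusted p 0.0756 and 0.063).

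**Figure D3:**
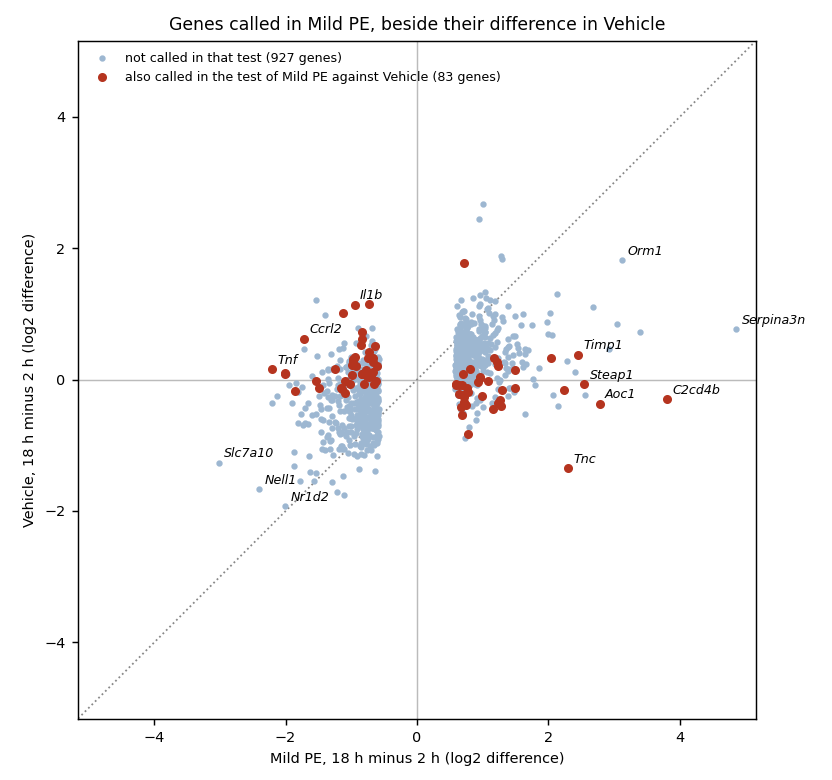
Log2 difference 18 h minus 2 h in Vehicle (vertical) against that in Mild PE (horizontal) for the 1010 genes called in Mild PE, with the line of equal differences dotted. The 83 genes that also passed the test of Mild PE against Vehicle (red) lie away from the line, such as Tnc at −1.35 in Vehicle, while Nr1d2 lies near it (−2.01 and −1.92).

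Set beside Severe PE, nearly all genes called in Mild PE had the same sign. In Severe PE 1227 genes (8.63%) were called between the times, and 492 were called in both doses in the same direction, 48.7% of the Mild PE genes and 40.1% of the Severe PE genes, against 1 in opposite directions. Of the 1010 Mild PE genes 976 (96.6%) had the same sign in Severe PE and 841 (83.3%) the same sign with at least 0.5 times the size, and across them the differences correlated at r = 0.881, again with no rats shared. Over all 14217 genes these shares were 71% and 59.3%, and r was 0.647. Timp1 had 2.60 in Severe PE beside 2.45, Tnc 2.06 beside 2.29 and Slc7a10 −4.0 beside −3.02. Orm1 had 5.37 and Saa3 4.07 in Severe PE, Tnf −0.80 (adjusted p 0.203) and Cxcl2 −0.76 (adjusted p 0.143). None of these 4 passed the test of the difference between doses (adjusted p 0.0713 for Orm1 to 0.266 for Cxcl2). That test called 14 genes (0.0985%), 11 above and 3 below. The following were chosen after their values were seen. Hspa1a, the inducible heat shock protein, had −0.29 in Mild PE and −2.36 in Severe PE (difference 2.08, SE 0.33, adjusted p 0.0165). Its 2-h Severe PE rats stood at 13.28, 13.60, 12.54 and 13.01, above all 2-h Mild PE rats (11.40, 11.68, 10.90 and 11.05). Its cochaperone Dnajb1 differed by 1.33, Rsrp1 by 2.18, Banp by 1.52 and the ubiquitin ligase Marchf7 by −1.33. By probeset this test called 25. Leaving out the 4 arrays low in 5′ signal raised the number to 167.

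**Figure D4:**
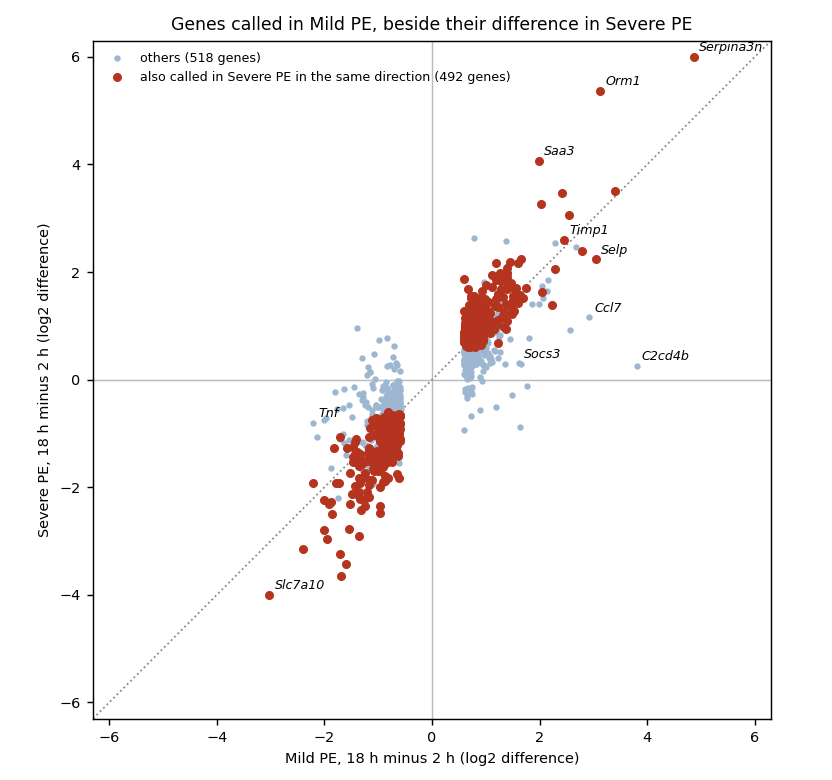
Log2 difference 18 h minus 2 h in Severe PE (vertical) against that in Mild PE (horizontal) for the 1010 genes called in Mild PE, with the line of equal differences dotted. The 492 genes called at both doses in the same direction (red) lie along the line, Orm1 and Saa3 lie above it, and C2cd4b lies at 0.26 in Severe PE.

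Markers of cell types moved with these changes, and their part in the gene results was not tested. Macrophage markers had 2 of 15 higher, Chi3l1 (1.19, adjusted p 0.0279, call lost in 8 of 17 alternatives) and Itgax (1.22, adjusted p 0.0497, call lost in 12). Their summed linear signal was 42590 to 50480 at 2 h and 61270 to 65540 at 18 h of Mild PE, without overlap, against 41370 to 46910 and 44590 to 48140 in Vehicle. Of the 15, 12 had positive differences, and the count called was 5 with median centring and 3 without normalization. Of markers shared by all macrophages, Cd68 went from 12.10, 11.97, 11.82 and 11.91 to 12.29, 12.48, 12.45 and 12.88 without overlap (0.57, adjusted p 0.0406), just under 1.5-fold, and was called with median centring or no normalization. Csf1r had 0.11 and Lyz2 0.10. Neutrophil markers had 2 of 10 higher, Cxcr2 (call lost in 3 of 17 alternatives) and Csf3r (1.28, adjusted p 0.0436, call lost in 12), with a median of 0.808 beside 0.456 in Vehicle. Their summed signal overlapped between the times (7019 to 21440 and 15140 to 36710), also in the abundant S100a8 and S100a9 (0.84 and 0.84, neither called). In Vehicle it was 5482 to 9966 at 2 h and 13780 to 26280 at 18 h.

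All 10 alveolar type I markers (9 with median centring) had negative differences, 2 of them called (1 with median centring or no normalization), Igfbp2 (−0.78, adjusted p 0.00794) and Cav1 (−0.64, adjusted p 0.00748), both also made by other cells. The list's median was −0.467 (Vehicle −0.151), and the 18-h rats, with a summed signal of 66450 to 76880, all lay below the 2-h rats (90230 to 93340), against 2-h and 18-h ranges of 94580 to 106500 and 88490 to 92730 in Vehicle. Ager, which type I cells make in large amounts, had −0.24 (adjusted p 0.0773, not called). Alveolar type II markers had 0 of 12 called, a median of 0.0562, 0.16 for surfactant protein C (Sftpc), 0.22 for Napsa and −0.21 for Slc34a2 (0.11 with median centring). Of 16 endothelial markers 3 fell, the capillary carbonic anhydrase Car4 from 11.54, 11.63, 11.51 and 11.58 to 10.80, 10.66, 10.28 and 10.18 (−1.08, SE 0.14, adjusted p 0.0078, Vehicle 0.20), Emcn (−0.93, adjusted p 0.0292, Vehicle −0.81) and Tek. Pecam1, made by all endothelium, had −0.41 (adjusted p 0.336). The endothelial sum was 88600 to 93090 at 2 h and 67260 to 86400 at 18 h, against 79260 to 88540 and 91020 to 99480 in Vehicle. Of 12 fibroblast markers 2 fell, Col13a1 (−1.50, SE 0.13, adjusted p 0.00307) and Mfap5 (−1.0, adjusted p 0.0327). The fibroblast sum was 44300 to 46080 at 2 h and 31800 to 42510 at 18 h, against 45050 to 51490 and 47270 to 56200 in Vehicle. The list's median was −0.305, with 8 differences negative and 4 positive. With median centring 6 were negative and 6 positive, and 1 gene was called higher beside 2 lower.

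Other marker lists had few or no calls. In smooth muscle Des rose (0.92, adjusted p 0.0126) and Mylk fell (−0.60, adjusted p 0.00662), of 13. The heart muscle genes Myh6 and Myl7, which rat lungs carry in the muscle of pulmonary veins, fell by 0.66 and 0.72 (2 of 13, adjusted p 0.0105 and 0.0175). Single genes were called among club cell markers (Pigr, −0.63, of 8, Vehicle −0.65), B cell and plasma cell markers (Jchain, −0.78, of 7), red cell markers (Tmod1, −0.84, of 7) and mesothelial markers (Wt1, 0.73, of 7). The B cell list had a median of 0.239, with 4 differences positive and 3 negative. With median centring 1 of its genes was called higher and 0 lower. None were called among markers of T cells (12 genes, Cd8b at 0.59 and Cd5 at 0.41), natural killer cells (10, Xcl1 at −1.12 and Prf1 at −0.39), mast cells (11, Kit at −0.53 and Gata2 at −0.38), ciliated cells (8, Tekt1 at −0.46 and Tppp3 at −0.31), platelets (8, Ppbp at −0.56 and Pf4 at −0.39), adipocytes (8, Pck1 at −0.71 and Fabp4 at 0.81) and liver (7).

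**Figure D5:**
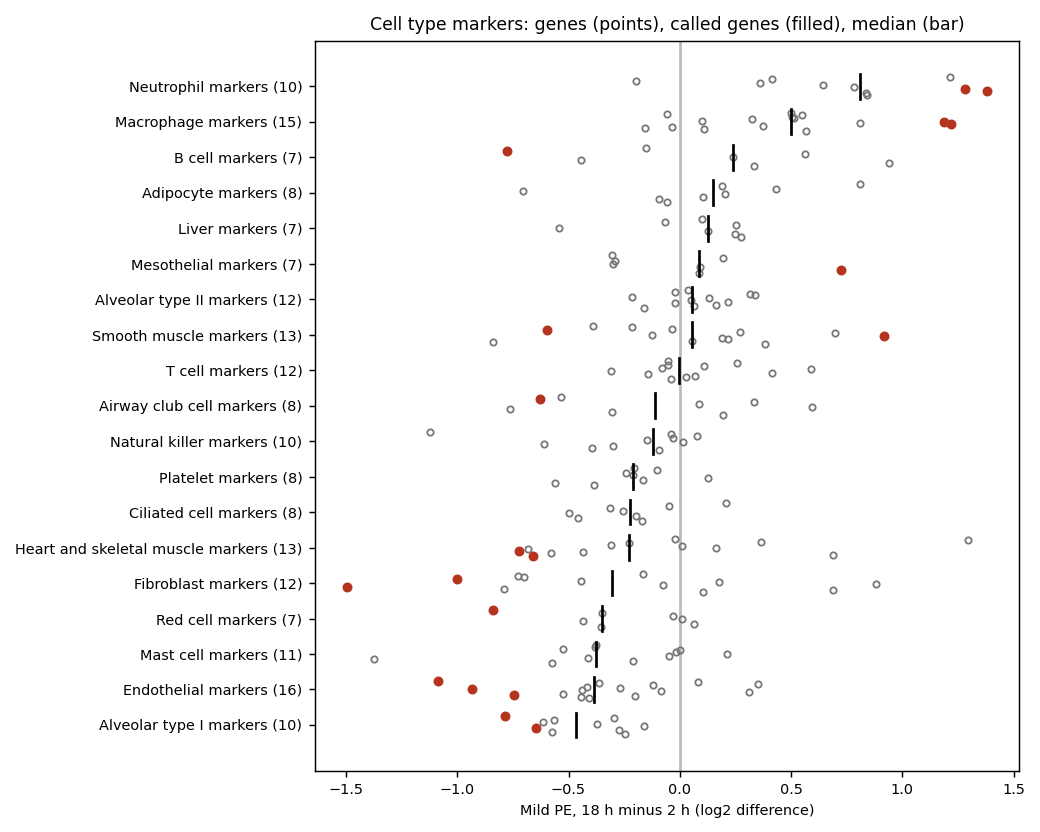
Log2 difference 18 h minus 2 h of Mild PE (horizontal) for each marker gene (points, filled where called) of 19 cell type lists, ordered by list median (bar), with the number of genes measured in brackets. Neutrophil and macrophage medians are the highest (0.808 and 0.502), and all 10 alveolar type I markers lie below 0 (9 with median centring).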

How the data were processed

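Total RNA of whole right lung from 22 rats was hybridised to Affymetrix whole-genome rat arrays, 1 per rat. The study's methods describe GC-RMA normalization, but the values the authors deposited are linear probeset intensities with a 2% trimmed mean of about 500.2 on every array, so another summary of the same arrays is analysed here. The 57 array controls were left out of 31099 probesets, intensities under 16 (13.6% to 17.3% of probesets per array) were set to 16, log2 was taken and all 22 arrays were quantile normalized. Symbols came from the array's annotation (20826 probesets with 1 symbol, 436 with several and 9780 with none).

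Tests used limma 3.58.1 in R 4.3.3 (lmFit and eBayes without a trend), with Benjamini-Hochberg adjustment over 31042 probesets. The Mild PE, Vehicle and Severe PE comparisons used only their own 2 groups. The differences of time differences were contrasts in 1 fit of all 22 arrays. The labels call the rats biological replicates. Scripts were tested on simulated data.

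The comparison, the 54 gene lists (35 pathways, 19 cell types) and the naming rule were chosen with earlier results of these data known. Lists carry no test. Named are the 15 largest rises and falls without overlap of rats, the 10 largest differences from Vehicle each way, and per list up to 4 called genes of smallest adjusted p (2 where none was called). Named beyond the rule, after values were seen, were Ager, Atf3, Banp, Ccl2, Cd14, Cd68, Cebpd, Csf1r, Dbp, Dnajb1, Dnajb11, Dnajc3, Egr1, Fdps, Fos, Hmox1, Hp, Hspa1a, Hspa5, Hyou1, Il6, Lyz2, Manf, Marchf7, Mmp12, Mthfd2, Nr1d1, Nr4a1, Pdia3, Pdia4, Pecam1, Per1, Per3, Postn, Rsrp1, S100a8, S100a9, Sftpc, Slc1a5, Spon2 and Tsc22d3. The number of arrays limits the precision.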

Additional observations from a re-analysis of the deposited data

Results flagged for a closer look

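Genes named above whose time difference in Mild PE differed from that in Vehicle, by the limma contrast, are given by that difference. Those above Vehicle were C2cd4b (4.1), Tnc (3.64), Aoc1 (3.15), Steap1 (2.61), Itgb1bp2 (2.4), Adamts4 (2.39), Timp1 (2.07), Flrt2 (1.92), Ntrk2 (1.75), Chrdl2 (1.71), Adamts1 (1.6), Gar1 (1.11), Wdr12 (0.933) and Pdia6 (0.853). Those below were Tnf (−2.37), Ccrl2 (−2.34), Nfkbid (−2.14), Srpx2 (−2.11), Cxcl2 (−2.1), Il1b (−2.09), Htra3 (−1.9), Tekt5 (−1.9), Pim1 (−1.71), Slc38a5 (−1.69), Col13a1 (−1.37), Lama2 (−1) and Gata2 (−0.989). The time difference in Mild PE was above that in Severe PE for Rsrp1 (2.18), Hspa1a (2.08), Banp (1.52) and Dnajb1 (1.33) and below it for Marchf7 (−1.33).

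In 26 of 362 groups of 4 Mild PE rats (the named genes at each time), 1 rat lay far from the other 3, where chance gives about 1 in 20. At 18 h rat 3 was this rat in 10 genes. It was lowest for Aldh1l2 (7.37 against 8.24 to 8.36), Ccl24 (7.95 against 8.99 to 9.11), Cd14 (12.42 against 12.86 to 12.93), Gar1 (9.54 against 10.11 to 10.18), Itgax (9.84 against 11.08 to 11.12), Itgb1bp2 (5.87 against 6.58 to 6.71), Myc (9.64 against 10.34 to 10.40), Tnc (10.90 against 11.66 to 11.81) and Wt1 (7.01 against 7.06 to 7.07), and highest for Tek (12.47 against 11.88 to 11.97). Among 18-h rats, rat 2 stood out for Cd80 (5.46 against 4.74 to 4.83) and rat 4 for Socs3 (8.95 against 10.20 to 10.41). At 2 h rat 4 was highest for the clock genes Per1 (9.72 against 9.01 to 9.08) and Tef (10.95 against 10.40 to 10.43), for Cldn11 (10.53 against 10.06 to 10.14), Col13a1 (11.64 against 11.43 to 11.46) and Sectm1b (4.06 against 4 in the others), and lowest for Il1b (11.97 against 12.47 to 12.54). Rat 2 of 2 h stood out for the glucocorticoid target Fkbp5 (11.33 against 10.65 to 10.75), Osgin1 (9.45 against 9.23 to 9.25), Spry4 (9.70 against 9.36 to 9.42) and Slc38a5 (10.48 against 10.56 to 10.58). Rat 1 of 2 h did so for Ccl24 (7.03 against 6.58 to 6.63), Steap1 (7.08 against 6.06 to 6.12), Mybbp1a (10.95 against 10.81 to 10.83) and Napsa (13.25 against 13.36 to 13.38).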

How the results depend on the processing

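No named gene called in Mild PE turned its direction under the alternatives run. Against Vehicle, none of the genes named for the largest differences did so. Called genes outside these sets were not followed over all the alternatives. Uncalled values near 0 turned direction with median centring, namely Egr1 (0.138), Rps23 (0.196) and Slc34a2 (0.106). Of the values of named genes in Mild PE 2471 kept their status, 581 lost a call and 25 gained one. The 2471 include values of genes that were not called and stayed so. For the largest differences from Vehicle, all called in the main fit, 297 values kept their call and 143 lost it. The alternatives were median centring or no normalization, a floor of 64, dim probesets left out, a variance trend, 1 limma fit of all 6 groups, the methods' t-test, low 5′ arrays left out, each rat left out, and the replicate number as a block. The numbers do not pair the rats (correlations of 0.0401, 0.00202, −0.0208 and −0.0274 in Mild PE). With the replicate block 0 probesets were called in Mild PE, Vehicle or Severe PE, 0 genes in each of the 6 lists below, and 110 against Vehicle in place of 231.

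The count in Mild PE (1691) ran from 985 to 1830 with 1 rat left out, without 2-h rat 3 and without 18-h rat 3. Vehicle (5) gave 2 with median centring, 3 with a floor of 64, 2 without dim probesets, 9 with a variance trend, 0 without low 5′ arrays, 833 in the fit of all 6 groups and 0 to 1 with 1 rat left out. Severe PE (1956) gave 3021 in the fit of all 6 groups, 1275 by the methods' t-test and 1069 to 1986 with 1 rat left out. The test against Vehicle (231) gave 77 with median centring, 97 without dim probesets, 89 without low 5′ arrays and 61 to 461 with 1 rat left out. The test against Severe PE (25) gave 15 with median centring, 40 without normalization, 55 with a floor of 64, 167 without low 5′ arrays and 14 to 53 with 1 rat left out. Median centring put the median of all probesets at 0.0838 in Mild PE and 0.165 in Vehicle. The cause was not tested.

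With 1 rat left out, acute phase genes (7 rose) gave 5 to 7, endoplasmic reticulum chaperones (9) gave 4 to 7, ribosome biogenesis (12) gave 8 to 16, ATF4 targets (5) gave 3 to 8, metalloproteinases and inhibitors (5) gave 4 to 5, and clock genes (6 fell) gave 0 to 4. Acute phase genes gave 4 with a floor of 64, ATF4 targets 3 without low 5′ arrays and 3 by the methods' t-test, and clock genes 3 without low 5′ arrays. Among named genes called in Mild PE, the call was lost in 13 of 17 alternatives for Ccl21, Hyou1, Jchain, Sele and Vegfd. It was lost in 12 for Cebpd, Csf3r, Il33, Itgax, Manf and Osgin1. Against Vehicle, Timp1, Tnc, Steap1, Ccrl2 and Htra3 were called in all 22 alternatives. The call against Vehicle was lost in 2 for Tnf, 14 for C2cd4b, 15 for Itgb1bp2 and 16 for Il1b.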
